A study of Iris tectorum with 6 samples.

Results

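The STRUBBELIG and TMK receptor kinases were followed in leaves of Iris tectorum, a rhizomatous garden iris. Members were taken by name, as every unigene (an assembled transcript) whose best protein hit in the nr database was called STRUBBELIG or kinase TMK. This gave 48 of the 111791 unigenes that had reads, 35 of the STRUBBELIG-receptor family (SRF) and 13 of the TMK family. Both CL2215.Contig5_zju, an SRF8, and Unigene61944_zju, a TMK3, were selected on their measured counts, which were higher in co-culture than in plant alone. The difference between groups is therefore given for these 2 as a description, with no test. All plants stood in swine wastewater in a glasshouse, flooded to 12.3 cm on average (± 0.8 cm), either without an added alga or together with the microalga Dictyosphaerium sp., and the labels give no age, cultivar or exposure time. Co-culture is represented by replicates 1, 2 and 3 and plant alone by replicates 2 and 3, 5 libraries in all. The first plant alone replicate is not analysed here. The labels do not tie samples to separate plants or tanks, so p-values measure only the spread between these samples, which may be technical.

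Both families are receptor-like kinases, with leucine-rich repeats outside the cell, a single membrane span and a kinase domain inside. In Arabidopsis, STRUBBELIG itself is an atypical kinase that shapes ovule integuments, floral organs and root epidermal pattern, and it acts together with the membrane protein QUIRKY. Its relatives are the SRF genes, of which SRF3 has been tied to iron status and immune responses and SRF4 to leaf size. The TMK (transmembrane kinase) proteins of Arabidopsis carry auxin signals at the cell surface: TMK1 works with auxin-binding proteins, activates plasma membrane proton pumps and acts on ROP GTPases, and TMK4 acts on auxin synthesis. TMK1, TMK3 and TMK4 overlap in the control of growth there.

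Library totals lay between 18616931 and 22975621 expected counts, and members took from 0.0211% to 0.0277% of them. Levels are CPM (counts divided by library size) scaled by the trimmed mean of M-values (TMM), where 3 counts correspond to between 0.124 and 0.172 CPM per library. Summed chlorophyll a-b binding protein transcripts, markers of green leaf tissue, were present everywhere but uneven. They stood at 7152 and 4736 CPM in plant alone 2 and 3 and at 18026, 24521 and 3030 CPM in co-culture 1, 2 and 3. Unigenes with a green algal hit took 0.242% and 0.259% of counts in plant alone and from 0.17% to 0.197% in co-culture. Hits to fungal and oomycete genera took between 0.0392% and 0.0546% in 4 libraries and 0.165% in plant alone 3. The part of these differences in the results below was not tested. In RNA from whole leaves, fewer cells of a type and less RNA per cell cannot be told apart.

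The 48 members fell into 10 contig clusters, which held 28 of them, and 20 unigenes outside any cluster. Reads can be divided between similar contigs of a cluster, so sums over a cluster are given beside single contigs. By name, 12 members were SRF8, 9 SRF6, 9 SRF3, 4 SRF5 and 1 SRF7, while 9 were TMK1 or TMK1-like, 2 TMK3 and 2 TMK4. None carried the plain name STRUBBELIG. The closest protein came from Asparagus officinalis for 32 members, and the others hit 7 further flowering plants. Lengths ran from 204 to 4722 bases, with 16 members of at least 2000 bases and 28 under 1000. The annotation separated both families: 23 of 35 SRF members carried the KEGG identifier of interleukin-1 receptor-associated kinase 4, an animal kinase related to plant receptor kinases, against 1 of 13 TMK members. The general KEGG entry for a kinase was given to 12 of 13 TMK members and 2 of 35 SRF members. Expected counts were whole numbers (within 0.005) in every library for 14 of the 20 single unigenes, among them all 3 long TMK unigenes described below, and for 3 of the 28 clustered contigs. Fractional counts arise where reads are shared out between transcripts.

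Summed over all members, the SRF family held nearly equal amounts of RNA in both settings. The 35 SRF unigenes together stood at 144.9 and 135 CPM in plant alone 2 and 3, and at 163.8, 152.5 and 107.7 CPM in co-culture 1, 2 and 3. The 13 TMK unigenes summed to 128.7 and 93.9 CPM in plant alone and to 102.2, 94.3 and 74.9 CPM in co-culture. Both sums overlapped between the groups. The make-up of both families varied more: TMK3 and SRF8 sums were higher in every co-culture library and the main TMK1 transcript was lower. The sum over all 9 TMK1 unigenes overlapped, at 121.1 and 85.6 CPM in plant alone against 88.2, 51.9 and 44.5 CPM in co-culture. The TMK3 and SRF8 sums each hold a unigene selected for its level, so they are given with no test. Without its selected unigene the SRF8 sum overlapped between the groups, while the remaining TMK3 unigene was higher in each co-culture library. The directions of the TMK3 and SRF8 sums and of the main TMK1 transcript were the same with upper-quartile scaling and with plain library totals. So was the overlap of both family sums. Scaling does not undo the selection.

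**Figure D1:**
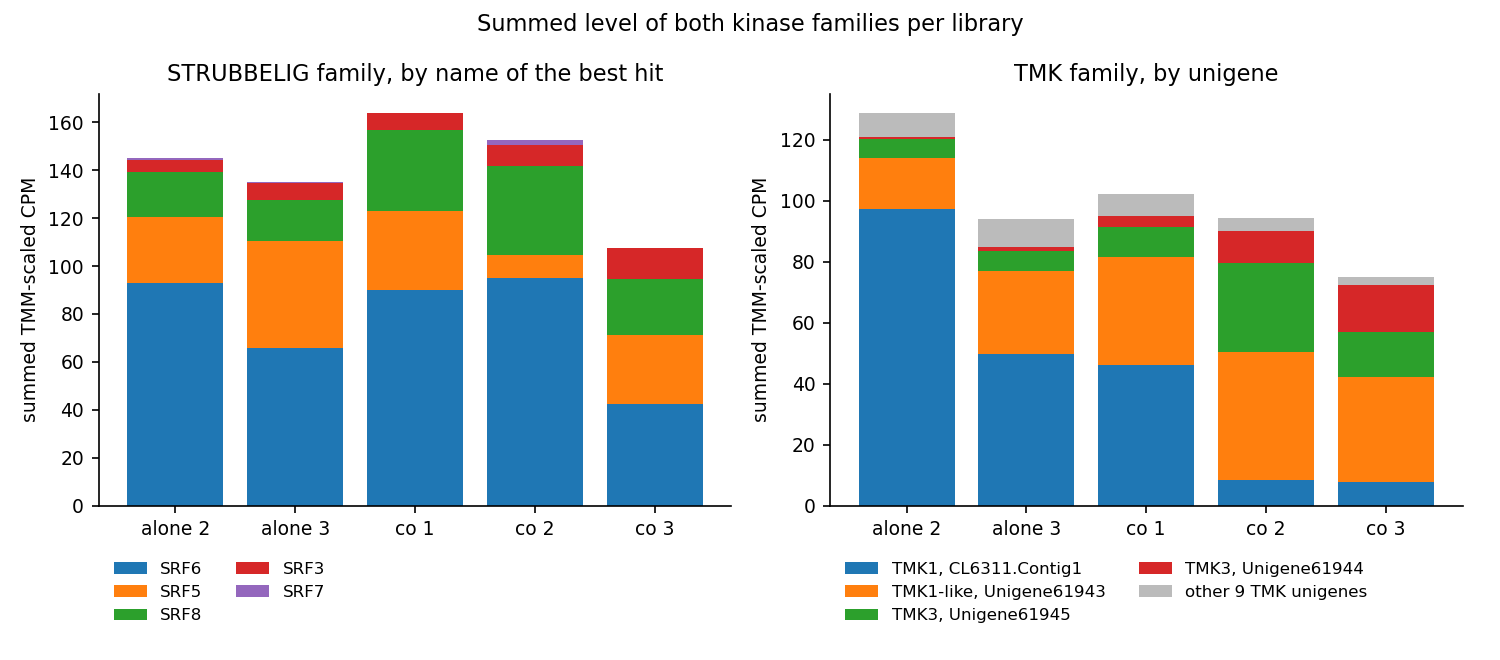
Stacked bars give the summed level in TMM-scaled CPM for each library (alone, plant alone; co, co-culture). In the left panel, colours are SRF names, and in the right panel TMK unigenes. CL6311.Contig1 makes up most of the first bar on the right at 97.3 CPM and little of the last at 7.74 CPM, while both TMK3 unigenes widen.

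The TMK family was carried by 4 long unigenes. The first, Unigene61944_zju (3439 bases), is 1 of the 2 unigenes picked for a higher level in co-culture. It stood at 0.575 and 1.26 CPM in plant alone 2 and 3, and at 3.56, 10.7 and 15.5 CPM in co-culture 1, 2 and 3. Its means were 0.918 ± 0.485 CPM (SD, n = 2) and 9.90 ± 5.99 CPM (SD, n = 3), a ratio of 10.8. The groups did not overlap, and the co-culture libraries were far apart, with replicate 1 closest to plant alone. In deposited FPKM, which is per length, this TMK3 remained a minor transcript in plant alone at 0.255 and reached 2.92 in co-culture.

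The other TMK3, Unigene61945_zju (3653 bases), had its best hit in the same asparagus protein. Its level was 6.48 and 6.42 CPM in plant alone, and 9.85, 29.3 and 14.8 CPM in co-culture. Every co-culture library lay above plant alone, and co-culture 2 was the highest, whereas co-culture 3 was the highest for Unigene61944_zju. The means of Unigene61945_zju were 6.45 ± 0.0438 (SD, n = 2) and 18.0 ± 10.1 CPM (SD, n = 3). The DESeq2 log2 fold change was 1.51 ± 0.67 (SE, adjusted p = 0.294), and edgeR gave an unadjusted p of 0.046 (adjusted p = 0.628). The difference thus did not pass either test. The summed level of both TMK3 unigenes was 7.06 and 7.68 CPM in plant alone and 13.4, 40.0 and 30.3 CPM in co-culture.

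Unigene61943_zju (3495 bases), a TMK1-like kinase, was at 16.6 and 27.4 CPM in plant alone and at 35.5, 41.7 and 34.3 CPM in co-culture. Its groups were apart, with means of 22.0 ± 7.62 (SD, n = 2) and 37.2 ± 4.00 CPM (SD, n = 3). The log2 fold change was 0.78 ± 0.43 (SE, adjusted p = 0.462) by DESeq2, and the edgeR adjusted p was 0.628. Without plant alone 3, its DESeq2 log2 fold change was 1.18.

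CL6311.Contig1_zju (2723 bases) was named TMK1 and ran the other way. It stood at 97.3 and 49.7 CPM in plant alone 2 and 3 and at 46.2, 8.51 and 7.74 CPM in co-culture 1, 2 and 3. All co-culture libraries were lower, but co-culture 1 came within a few CPM of plant alone 3. The means were 73.5 ± 33.7 (SD, n = 2) and 20.8 ± 22.0 CPM (SD, n = 3), and DESeq2 put the difference at -1.80 ± 1.01 on the log2 scale (SE, adjusted p = 0.479), while the edgeR adjusted p was 0.637. Leaving out co-culture 1 gave a DESeq2 log2 fold change of -3.11 (adjusted p = 0.000319), so DESeq2 called it without this library and not with it. That fit called 2780 of 65359 unigenes, against 1294 of 69984 with all libraries, so more was called in general. In FPKM, CL6311.Contig1_zju was the most abundant member in plant alone, at 26.2 on average, and averaged 7.42 in co-culture, against 10.4 there for Unigene61943_zju. Its share of TMK family CPM was 75.6% and 52.9% in plant alone, and 45.2%, 9.03% and 10.3% in co-culture. The share of Unigene61943_zju was 12.9% and 29.1%, and 34.7%, 44.3% and 45.8%.

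**Figure D2:**
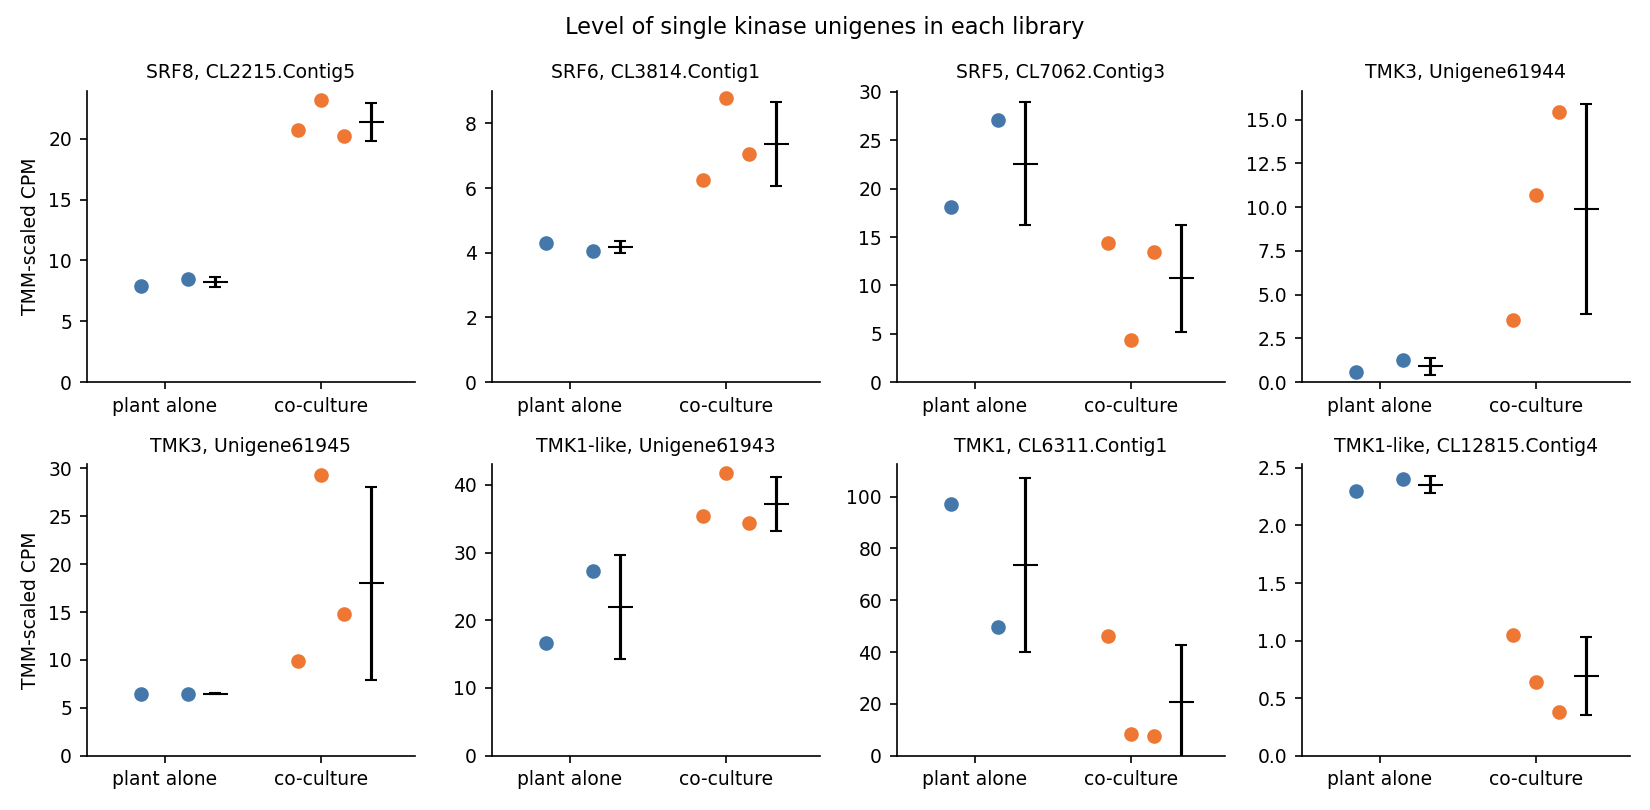
Each point is 1 library, in TMM-scaled CPM on a linear axis from 0 (blue, plant alone; orange, co-culture), and bars give the mean ± SD of the group. Only unigenes whose groups were apart are shown, among them CL2215.Contig5 and Unigene61944, which were picked for their level. CL2215.Contig5, CL3814.Contig1, Unigene61944, Unigene61945 and Unigene61943 sit higher in co-culture, and CL7062.Contig3, CL6311.Contig1 and CL12815.Contig4 lower.

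The remaining TMK members were scarce. CL12815 is a cluster of 4 TMK1-like contigs that share 1 best hit. Summed, it stood at 5.18 and 7.46 CPM in plant alone and at 4.05, 1.43 and 2.27 CPM in co-culture, below plant alone in all 3 libraries (log2 fold change -1.25 ± 0.64, SE; DESeq2 adjusted p = 0.37, edgeR adjusted p = 0.534). Its CL12815.Contig4_zju had 2.30 and 2.41 CPM, then 1.05, 0.643 and 0.380 CPM (edgeR unadjusted p = 0.0454, adjusted p = 0.628). CL12815.Contig3_zju had no reads in plant alone 2 and 3 or in co-culture 2, and 0.953 and 0.445 CPM in co-culture 1 and 3. In a fit without co-culture 2 that called 2160 of 64986 unigenes, DESeq2 called this contig (adjusted p = 0.0345). The authors' deposited table, which also pools the plant alone replicate not analysed here, gave it 32.68 counts in plant alone and 32.17 in co-culture, a log2 ratio of -0.19 that was not called. Unigene8221_zju, a TMK1-like fragment of 774 bases, was at 1.57 and 0.745 CPM in plant alone, at 2.36 CPM in co-culture 1 and without reads in co-culture 2 and 3. TMK4 was represented by Unigene8243_zju, at 0.628 and 0.631 CPM in plant alone and 0.446, 1.43 and 0.0825 CPM in co-culture, and by Unigene51232_zju, with reads in co-culture 1 and 2 only (0.134 and 0.940 CPM). The groups of both TMK4 unigenes overlapped.

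Among the SRF members, CL2215.Contig5_zju (2682 bases), is the SRF8 contig picked for its level. It stood at 7.94 and 8.52 CPM in plant alone and at 20.7, 23.2 and 20.2 CPM in co-culture. Means were 8.23 ± 0.412 (SD, n = 2) and 21.4 ± 1.59 CPM (SD, n = 3), a ratio of 2.6, and the groups were apart by more than their whole spread. In FPKM the level was 2.93 and 7.83.

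The other 6 contigs of CL2215, of which 4 were SRF8 members and 2 had no protein hit, were low and irregular. CL2215.Contig4_zju had 1.83 and 0 CPM in plant alone and 1.15, 1.26 and 0 CPM in co-culture. CL2215.Contig7_zju had 0.138 and 2.03 CPM, then 0.915, 2.81 and 0 CPM. Neither showed a separation between groups. CL2215.Contig8_zju had 0.827 and 0.0642 CPM in plant alone, 0.259 CPM in co-culture 2 and none in the other co-culture libraries. CL2215.Contig9_zju lay between 0 and 0.567 CPM, CL2215.Contig2_zju between 0.238 and 0.371 CPM and CL2215.Contig1_zju between 0 and 0.0747 CPM. CL2215.Contig5_zju held 70.6% and 77.7% of the cluster's CPM in plant alone, and 88.5%, 81.7% and 97.5% in co-culture. The whole cluster stood at 11.24 and 10.96 CPM and at 23.4, 28.4 and 20.8 CPM. The sum thus separated the groups as its main contig did, at a log2 fold change of 1.14 against 1.37 for the contig. Since that contig was picked for being higher and holds most of the sum, this separation adds no support. A further SRF8 contig of this cluster, CL2215.Contig6_zju, had 22.66 pooled counts in plant alone and 0 in co-culture in the authors' deposited table, and no reads in the libraries analysed here.

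The second long SRF8, Unigene20176_zju (1766 bases), gave another picture. It had 6.39 and 5.74 CPM in plant alone, then 9.03, 6.52 and 0.969 CPM in co-culture, where replicate 3 alone was low. The groups overlapped (log2 fold change -0.11 ± 1.01, SE; DESeq2 adjusted p = 0.99). CL15965, a pair of short SRF8 contigs, summed to 1.15 and 0.647 CPM and to 1.47, 1.37 and 0.978 CPM. Within it CL15965.Contig1_zju had 1.15 and 0.521 CPM, then 0.810, 1.03 and 0.440 CPM. CL15965.Contig2_zju had 0 and 0.126 CPM, then 0.658, 0.333 and 0.538 CPM, with the groups apart (edgeR unadjusted p = 0.0543, adjusted p = 0.628), while the pair's sum overlapped. All 12 SRF8 unigenes together stood at 18.6 and 17.1 CPM in plant alone and at 33.95, 36.97 and 23.35 CPM in co-culture. That separation came from CL2215.Contig5_zju, as the sum of the other SRF8 unigenes overlapped between the groups and was lowest in co-culture 3.

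SRF6 was the most abundant SRF name, at 93.0 and 65.8 CPM in plant alone and 89.9, 95.0 and 42.5 CPM in co-culture when summed over 9 unigenes. Its largest contig, CL15552.Contig3_zju (4722 bases), had 47.9 and 34.6 CPM, then 47.6, 55.9 and 24.1 CPM. Its means were almost the same, 41.3 ± 9.42 (SD, n = 2) and 42.6 ± 16.5 CPM (SD, n = 3), and the log2 fold change was 0.08 ± 0.56 (SE, DESeq2 adjusted p = 0.987). Unigene1540_zju had 19.6 and 13.7 CPM, then 19.5, 16.3 and 7.65 CPM. CL15552.Contig1_zju had 11.2 and 6.36 CPM, then 8.19, 10.8 and 1.71 CPM. For all 3 of these SRF6 transcripts co-culture 3 was the lowest library. CL15552.Contig2_zju had 6.45 and 3.05 CPM in plant alone and 4.89, 0.0841 and 0.0936 CPM in co-culture, so that 2 co-culture libraries nearly lacked it and the other lay within plant alone. Without co-culture 1, DESeq2 called this contig (log2 fold change -5.65, adjusted p = 0.000188), in a fit that called 2780 of 65359 unigenes. The 6 contigs of CL15552 summed to 69.0 and 48.1 CPM and to 64.4, 70.3 and 27.2 CPM.

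CL3814.Contig1_zju, an SRF6-like contig of 2105 bases, was the SRF6 transcript with a higher level in every co-culture library. It stood at 4.31 and 4.06 CPM in plant alone and at 6.26, 8.78 and 7.06 CPM in co-culture. The means of 4.18 ± 0.177 (SD, n = 2) and 7.37 ± 1.29 CPM (SD, n = 3) corresponded to 0.85 ± 0.40 on the log2 scale (SE, DESeq2 adjusted p = 0.351), with an edgeR adjusted p of 0.63. Its cluster, with 3 contigs that had no protein hit, was at 6.95 and 5.10 CPM and at 8.92, 9.81 and 8.33 CPM, also apart. The short CL15552.Contig5_zju had 0.913 and 0.757 CPM, then 0, 0 and 0.435 CPM. The 1 SRF7 member, CL15552.Contig6_zju, had 0.682 and 0.316 CPM, then 0.150, 1.74 and 0.0462 CPM, with no separation.

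SRF5 was held by cluster CL7062, whose 3 contigs share 1 best hit in banana. CL7062.Contig3_zju had 18.1 and 27.1 CPM in plant alone and 14.4, 4.35 and 13.5 CPM in co-culture, lower in all 3 libraries (log2 fold change -1.06 ± 0.71, SE; DESeq2 adjusted p = 0.617, edgeR adjusted p = 0.656). CL7062.Contig4_zju had 6.82 and 14.3 CPM, then 16.1, 2.51 and 11.7 CPM. Here the groups overlapped, and the cluster sum also did, at 26.9 and 44.3 CPM against 31.9, 8.06 and 27.2 CPM. Co-culture 2 was the lowest library for the sum and for each of its 3 contigs. The fragment Unigene6414_zju (204 bases), named SRF5-like after a quinoa protein, had 0.540 and 0.229 CPM in plant alone and 1.17, 1.53 and 1.43 CPM in co-culture, apart in the other direction (log2 fold change 1.90 ± 0.78, SE; DESeq2 adjusted p = 0.238, edgeR unadjusted p = 0.0429, adjusted p = 0.628).

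SRF3 transcripts came mainly from cluster CL907. CL907.Contig2_zju had 4.44 and 6.11 CPM in plant alone and 4.12, 3.66 and 5.22 CPM in co-culture, with overlap. CL907.Contig1_zju had 0.579 and 0.495 CPM, then 0.669, 1.24 and 4.55 CPM. CL907.Contig3_zju had 0 and 0.215 CPM, then 1.36, 0.841 and 2.93 CPM. The last 2 were higher in each co-culture library than in plant alone 2 and 3. For CL907.Contig1_zju the authors' deposited table gave 85.87 pooled counts in plant alone and 150.44 in co-culture, a log2 ratio of 0.64 that was not called, against an edgeR log2 fold change of 1.97 here. For CL907.Contig3_zju that ratio in the authors' deposited table was 2.76, against 3.85 here. CL907.Contig3_zju had the lowest DESeq2 adjusted p of the tested members, 0.16 (log2 fold change 3.92 ± 1.45, SE; edgeR adjusted p = 0.628). Without plant alone 3, which leaves a plant alone group with no reads of this contig, the DESeq2 log2 fold change was 7.48. The sum over CL907 did not separate the groups, at 5.02 and 6.82 CPM against 6.15, 5.74 and 12.7 CPM. CL907.Contig2_zju made up 88.5% and 89.6% of that sum in plant alone, and 67%, 63.8% and 41.1% in co-culture. CL12171.Contig2_zju, another SRF3-like contig, had 64 counts in co-culture 2 and none in the other 4 libraries.

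**Figure D3:**
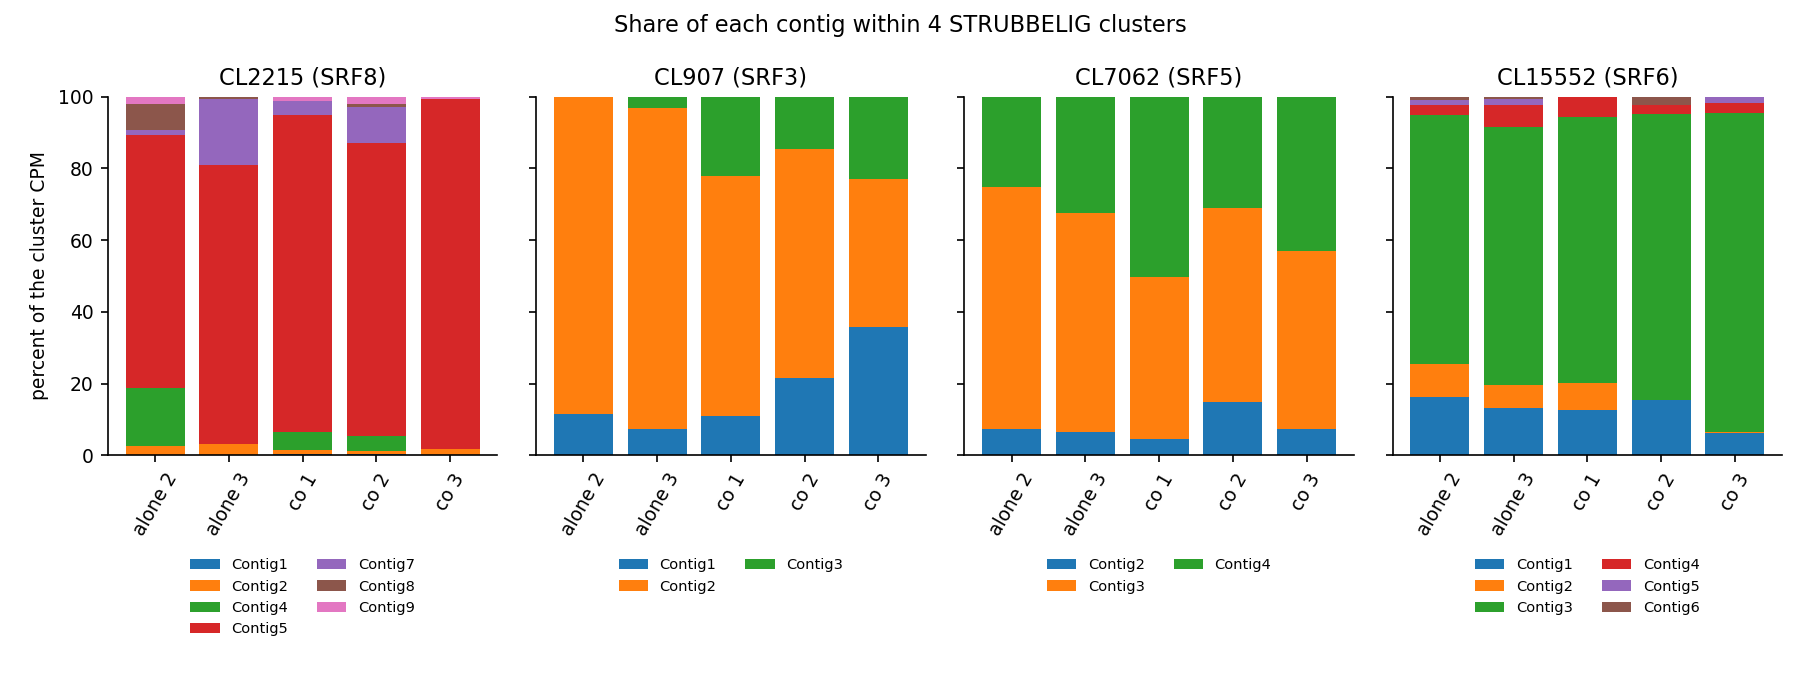
Bars show, for 4 SRF clusters, the percent of the cluster's CPM in each contig and library (alone, plant alone; co, co-culture). In CL907 the share of Contig2 is 88.5% and 89.6% in plant alone and between 41.1% and 67% in co-culture, and in CL2215 Contig5 is the largest in every library.

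Of the 46 members other than those picked for their level, 28 passed the count filter of edgeR. None was called by edgeR at adjusted p 0.05, where it called 0 (0%) of 69984 unigenes, and DESeq2 also called none, against 0.879% of all tested unigenes called higher and 0.97% called lower. DESeq2 gave no adjusted p for 2 of the 28. At unadjusted p under 0.05, edgeR gave 3 members higher (CL907.Contig3_zju, Unigene61945_zju and Unigene6414_zju) and 1 lower (CL12815.Contig4_zju), beside 2.75% and 4.45% of all unigenes. The groups were apart, with co-culture higher, for 7 of the 28, beside 12.8% of all unigenes, and with co-culture lower for 5, beside 17.2%. These 12 were the same with upper-quartile scaling and with plain library totals. CL907.Contig3_zju, CL15965.Contig2_zju and Unigene6414_zju passed the count filter only with their co-culture libraries, and CL15552.Contig5_zju only with plant alone. Their place among the 28 thus depended on the group where they were high, and their separation adds no support. The same holds for Unigene6414_zju among the cluster sums below. A log2 fold change above 0 was found for 12 of the 28, beside 50.1% of all unigenes. The median was -0.13 over the 28, -0.13 over 20 SRF and -0.25 over 8 TMK members, and 0.00 over all 69984. The TMK values were spread the widest among them, with quartiles of -1.64 and 0.94 against -0.31 and 0.42 for SRF and -0.65 and 0.63 for all unigenes. Those 8 TMK values include CL12815.Contig2_zju (-1.61), CL12815.Contig3_zju (6.28) and CL12815.Contig4_zju (-1.75), contigs of 1 cluster that are not separate genes by name. At the level of cluster sums, 14 of 28 entries passed the filter, and neither tool called any of them, beside 0.559% higher and 1.26% lower by DESeq2 over all cluster sums. With an unadjusted edgeR p under 0.05, 2 of the 14 were higher (Unigene61945_zju and Unigene6414_zju), beside 3.07% of all cluster sums, and 0 were lower, beside 6.36%. A log2 fold change above 0 was found for 7 of the 14, beside 49.6%. Of these 14, 4 stood above plant alone in every co-culture library (CL3814, Unigene61943_zju, Unigene61945_zju and Unigene6414_zju) and 2 below (CL12815 and CL6311), beside 12.6% and 18.5% of all cluster sums.

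**Figure D4:**
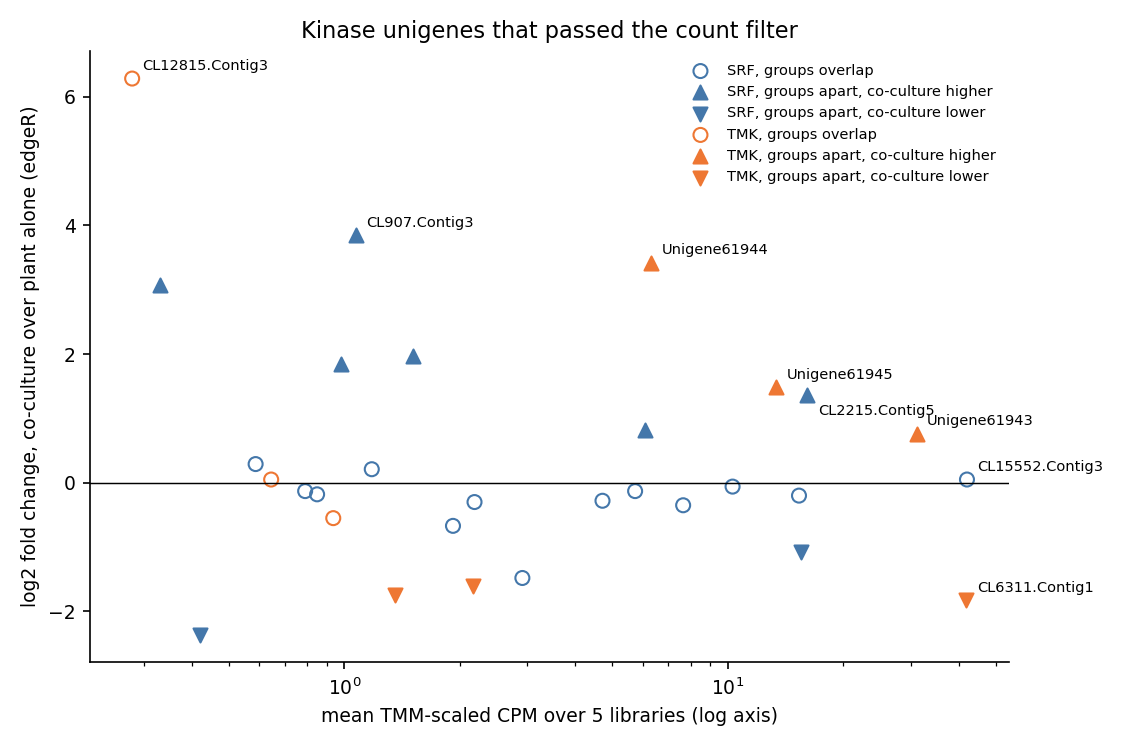
Each of the 30 members that passed the count filter is placed by its mean level (log axis, TMM-scaled CPM) and its edgeR log2 fold change, with filled triangles where the groups do not overlap. Unigene61944 and CL2215.Contig5 were picked for being high. CL12815.Contig3 had no reads in plant alone 2 and 3, so its fitted value of 6.28 depends on the tool's prior count, and the log2 ratio in the authors' deposited table was -0.19.

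The 18 members that did not pass the filter had at most 64 counts in any library. In all, 27 of the 48 members had reads in every library, 8 had none in plant alone 2 and 3 and 0 had none in co-culture, where 1 more library was read. In the authors' deposited table, which pools counts per group and holds plant alone reads not analysed here, 49 unigenes carried these names. Without the 2 selected for their level, 47 were left, 12 called up and 7 called down, beside 16.3% and 13.6% of its 112092 entries. The authors' deposited table gave log2 ratios of 3.87 for Unigene61944_zju, 1.82 for CL2215.Contig5_zju, 1.56 for Unigene61945_zju, 1.15 for Unigene61943_zju and -2.10 for CL6311.Contig1_zju. For 6 of the 30 tested members the direction in the authors' deposited table was the opposite of the edgeR value here. These were CL12815.Contig3_zju (-0.19 against 6.28), CL15965.Contig1_zju (0.24 against -0.13), CL2215.Contig4_zju (0.25 against -0.18), CL7062.Contig4_zju (0.39 against -0.06), Unigene20176_zju (0.16 against -0.13) and Unigene8243_zju (-0.69 against 0.05). A second of the authors' deposited tables, of unigenes matched to plant resistance genes, held 471 rows and listed 10 of the 49. All of these 10 were called up or down and no uncalled member was listed. The count may therefore follow the calls, and it does not measure likeness to resistance genes. CL2215.Contig5_zju matched a grapevine entry there at 62.1% identity, and Unigene61944_zju a cotton entry at 55.6%, both as the authors' deposited table gives them.

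The unigenes with the most similar profiles were found by the root mean square difference of centred log2(CPM + 0.5) over the 5 libraries, among 17717 unigenes with a named product and at least 5 CPM. Nearest to CL2215.Contig5_zju were contigs for phospholipase A I (CL15286.Contig6_zju, difference 0.080), a stress response protein nst1-like (CL4581.Contig2_zju, 0.123) and the stem-specific protein TSJT1-like (Unigene44671_zju, 0.130). Nearest to Unigene61944_zju were thioredoxin H1 (CL3350.Contig2_zju, 0.266), the phosphoglucan phosphatase LSF2 (CL3694.Contig6_zju, 0.316) and a UPF0051 protein (CL11155.Contig1_zju, 0.362). With 5 libraries and so many unigenes, near matches of this kind are a description only.

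Genes tied to these receptors in Arabidopsis, or to auxin and receptor signalling more widely, were looked at in 7 lists matched by product name. A place on a list does not make a gene a known partner of these kinases. No unigene in them was called by edgeR at adjusted p 0.05 (0% of all tested). Of 5 tested unigenes on the list of STRUBBELIG partners, 1 was higher in every co-culture library and 1 lower, beside 12.8% and 17.2% of all unigenes. The higher was Unigene62183_zju, at 2.20 and 2.87 CPM in plant alone and 4.14, 6.13 and 4.99 CPM in co-culture (DESeq2 adjusted p = 0.33), and the lower CL11108.Contig2_zju, at 11.1 and 11.2 CPM and 10.4, 0 and 8.44 CPM. The QUIRKY contigs CL3082.Contig2_zju and CL11108.Contig1_zju overlapped between groups, with log2 fold changes of 0.12 and -0.53. The 1 auxin-binding protein, Unigene38177_zju, had 13.7 and 21.3 CPM, then 15.7, 20.4 and 18.1 CPM, also overlapping.

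Plasma membrane proton ATPases, the pumps that TMK1 activates in Arabidopsis, had 22 tested unigenes with a median log2 fold change of 0.47, of which 3 lay above plant alone in every co-culture library and 0 below, beside 12.8% and 17.2% of all unigenes. Unigene2941_zju had 8.82 and 6.41 CPM, then 12.9, 16.4 and 13.9 CPM (edgeR unadjusted p = 0.0442, adjusted p = 0.628), and CL8318.Contig1_zju had 8.04 and 6.21 CPM, then 8.55, 25.7 and 18.2 CPM. The log2 fold change of CL8318.Contig1_zju was 1.33, and that of its cluster sum 0.17. The abundant CL13329.Contig5_zju had 151.3 and 159.5 CPM, then 65.4, 77.1 and 160.7 CPM, and CL5916.Contig1_zju had a log2 fold change of -0.35, both with overlap. Among 23 tested ROP GTPases and exchange factors, small switch proteins of cell shape and their activators, the median was 0.11, and the groups were apart for 5 higher and 3 lower, beside 12.8% and 17.2% of all unigenes. DESeq2 called 2 of them lower, beside 0.97% of all unigenes, CL1207.Contig5_zju (a rac-like protein, adjusted p = 0.0355) and CL8258.Contig3_zju (an exchange factor, adjusted p = 0.0194), while the sums over their clusters differed by -0.16 and 0.50 on the log2 scale. CL1207.Contig5_zju had 2.81 and 4.24 CPM in plant alone and 0, 0.264 and 0.261 CPM in co-culture. Unigene18016_zju, a rac-like protein, and CL7055.Contig1_zju, an exchange factor, were higher in every co-culture library (log2 fold changes 1.45 ± 0.63 and 0.91 ± 0.35, SE; DESeq2 adjusted p = 0.284 and 0.183), and CL8723.Contig1_zju was lower (-0.48 ± 0.36, adjusted p = 0.684).

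The nuclear auxin pathway (auxin response factors, IAA repressors and TIR1-type receptors) had 124 tested unigenes with a median log2 fold change of 0.29, of which 87 were above 0, beside 50.1% of all unigenes. In edgeR 7 were higher and 2 lower with an unadjusted p under 0.05, beside 2.75% and 4.45%. Groups were apart for 33 higher and 11 lower, beside 12.8% and 17.2% of all unigenes. DESeq2 called 1 of them higher, beside 0.879% of all unigenes, the auxin response factor contig CL2177.Contig5_zju, at 9.15 and 12.9 CPM in plant alone and 25.1, 35.5 and 26.3 CPM in co-culture (adjusted p = 0.0458; edgeR adjusted p = 0.628). Its log2 fold change was 1.42, and that of the CL2177 cluster sum was 0.63. CL16048.Contig1_zju, another response factor, had 4.18 and 2.35 CPM, then 7.19, 11.1 and 13.8 CPM. Lower were a TIR1-like contig, CL2137.Contig2_zju, at 100 and 129.1 CPM and then 37.7, 36.8 and 78.4 CPM, and the response factor CL11339.Contig2_zju, at 5.75 and 12.1 CPM and then 2.63, 2.73 and 4.79 CPM. Their adjusted p-values by DESeq2 were 0.383 and 0.348. On the log2 scale the cluster sums differed by -0.77 for CL2137 and -0.20 for CL11339, against -1.14 and -1.38 for the contigs.

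The list of SERK kinases and BRI1-associated kinases, co-receptors of many leucine-rich repeat kinases, also took in BRI1-like receptors by name. It had 15 tested unigenes, 4 with a log2 fold change above 0, beside 50.1% of all unigenes, and a median of -0.18. The groups were apart for 1 higher and 2 lower, beside 12.8% and 17.2%. Unigene19119_zju, named after the BRI1-associated kinase, had 76.5 and 88.2 CPM, then 58.8, 46.0 and 62.9 CPM, lower in every co-culture library (DESeq2 adjusted p = 0.535). Unigene83_zju, CL9874.Contig1_zju and CL12383.Contig3_zju, all of the SERK type, overlapped between groups, with log2 fold changes of 0.97, 0.71 and -1.25. Of 14 tested mitogen-activated protein kinases, which relay receptor signals, 2 were higher in every co-culture library and 0 lower, beside 12.8% and 17.2% of all unigenes. Both were contigs of kinase 4 in 1 cluster, CL1528.Contig3_zju, at 14.1 and 14.5 CPM and then 22.9, 26.8 and 25.4 CPM (edgeR unadjusted p = 0.0293, DESeq2 adjusted p = 0.101), and CL1528.Contig1_zju, at 14.3 and 16.6 CPM and then 26.0, 26.3 and 17.2 CPM. The kinase 3 contig CL2524.Contig4_zju and the kinase kinase Unigene50409_zju overlapped, with log2 fold changes of -0.29 and -0.16.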

How the data were processed

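Per the labels' protocols, leaf RNA was read on a BGISEQ-500. The submitters' processing notes list Bowtie2, RSEM and DESeq2 and give no versions. The authors deposited, per library, RSEM expected counts and FPKM for each unigene with reads. Their comparison tables held pooled expected counts, a log2 ratio, p-values and q-values, and percent identity to resistance genes, per the file headers. Which assembler was used is not given in the sources used here.

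Unigenes not listed for a library were counted as 0 there, and expected counts were rounded for the tests. All tests of the report used edgeR 4.0.16 (in R 4.3.3) first, on all unigenes, with its default low-count filter, TMM scaling, quasi-likelihood F tests and Benjamini-Hochberg adjustment at 0.05. Counts summed per cluster were fitted likewise. DESeq2 1.42.0 and limma 3.58.1 on log2(FPKM + 0.1) were alternatives. Single contigs were named if their mean FPKM was at least 1, if they belonged to CL2215, or if they helped to describe a cluster. The last of these were chosen after their values were seen. In each pathway list, the 2 unigenes with the smallest edgeR p per direction and at least 1 CPM were named. The members and lists were chosen with earlier results of these data known. The fungal and oomycete genera were picked after the data were seen.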

Additional observations from a re-analysis of the deposited data

How the results depend on the processing

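No member was called by edgeR under any setting tried: upper-quartile scaling, no count filter, a replicate block, and leaving out each library; limma on log2 FPKM also called 0. Over all unigenes edgeR and limma called 0 under each of these, while DESeq2 called 1294 unigenes and 803 cluster sums. The edgeR biological coefficient of variation, the spread between libraries beyond counting noise, was 0.773. With no unigene called at all, the 0 members called by edgeR do not tell the kinases from other unigenes. DESeq2 without 1 library, added after seeing the data, called between 2160 and 3732 unigenes and between 0 and 2 members. Where that left 1 plant alone library, it was assumed to vary like the others. Cluster sums called by edgeR numbered between 0 and 230 without 1 library, the 230 without co-culture 3, and the cause was not tested. With the replicate number as a block, edgeR called 0 of 69984 unigenes and 0 of 28 members. Co-culture 1 has no plant alone partner in that fit, so the group difference rested on replicates 2 and 3 only. At unadjusted p under 0.05 edgeR then gave 4696 of these unigenes, against 5036 without the block, and 5 of these members, against 4. The replicate numbers are not known to mark a shared batch. Deviations of same-numbered libraries from their group means correlated at 0.033 and 0.062 across unigenes. With 2 plant alone libraries these deviations mirror each other, and co-culture 1 has no pair, so the values do not test for a batch.

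Of 22 members with a named log2 fold change, 12 kept their direction without any 1 library. Among them were Unigene61945_zju (0.98 to 1.79), Unigene61943_zju (0.43 to 1.19) and CL6311.Contig1_zju (-3.14 to -1.26). CL907.Contig2_zju, also counted, ranged from -0.51 to 0.00. The 12 include CL2215.Contig5_zju (1.31 to 1.45) and Unigene61944_zju (2.95 to 4.13). Both were picked for being higher in these libraries, so their kept direction adds no support. The other 10 turned: CL15552.Contig1_zju (-0.81 to 0.12), CL15552.Contig3_zju (-0.18 to 0.33), CL15552.Contig6_zju (-0.10 to 0.86), CL15965.Contig1_zju (-0.57 to 0.55), CL2215.Contig4_zju (-1.16 to 7.12), CL2215.Contig7_zju (-1.23 to 2.95), CL7062.Contig4_zju (-0.52 to 0.60), Unigene1540_zju (-0.45 to 0.11), Unigene20176_zju (-0.69 to 0.37) and Unigene8221_zju (-7.53 to 0.08). Summing contigs turned CL15552.Contig3_zju and CL15552.Contig6_zju to -0.11, CL15965.Contig1_zju to 0.53, CL2215.Contig4_zju to 1.14 and CL907.Contig2_zju to 0.48. The replicate block, whose group difference rested on replicates 2 and 3, turned CL15552.Contig3_zju to -0.15, CL15552.Contig6_zju to -0.34 and CL2215.Contig7_zju to -0.70. FPKM turned CL15552.Contig6_zju to -0.69, CL2215.Contig4_zju to 0.40 and CL2215.Contig7_zju to -0.10, and upper-quartile scaling CL7062.Contig4_zju to 0.01. The cause of these turns was not tested.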
